A study of Mus musculus with 9 samples.

Results

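Periotic tissue is the mesenchyme and hindbrain that surround the otic vesicle (OV), the epithelial sac from which the inner ear forms. RNA of this tissue was set against RNA of the rest of the embryo, termed embryo-minus-otic, which is the whole embryo without the greater otic region. The members are the 6 arrays whose labels name one of these tissues, 3 of periotic tissue and 3 of embryo-minus-otic, out of 9 arrays in the series. The other 3 arrays hold dissected OV. They entered the normalization and the estimate of the spread, and their values are given beside those of the 6 where they help to place a gene. All tissue came from CD-1 mouse embryos at E10.5, and the labels name neither a mutation nor a treatment. Each sample was a pool of dissected tissue, and the methods speak of 3 litters. The labels do not say whether arrays with the same number come from one litter, so the p-values measure the spread between these pools, whatever its source. Both kinds of pool are mixtures of tissues, so a value is an average over their cells.

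At this stage the hindbrain is divided along its length into segments called rhombomeres, and the ear forms beside its middle segments. The identity of each segment and of each level of the trunk is set by Hox genes, transcription factors whose order along the chromosome matches the order of their expression along the body, and genes of low paralog groups reach into the hindbrain while those of high groups stay in the trunk and tail. Across its dorsoventral axis the neural tube is divided into progenitor domains, each marked by its own transcription factors. The comparison asks how the tissue around the ear differs from the embryo as a whole when neither holds the ear itself.

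RNA was measured on Illumina MouseRef-8 v2.0 arrays, which carry 25697 probes under 18120 gene symbols. Signals of the 9 arrays were brought to log2 and to a common distribution by quantile normalization, so a value of 1 unit more is a doubling of intensity. Differences are given on this log2 scale as periotic tissue minus embryo-minus-otic with the standard error (SE) of a limma model of the 3 groups, with *q* for that model's p after Benjamini-Hochberg adjustment over all probes. A probe was called at *q* under 0.05. Above background means a detection p-value under 0.01 on that array, a measure that sets the signal against negative controls. Where a gene was above background on no array of the lower group, its fold Δ is a lower bound, written as at least N-fold, which sets the brighter mean against the lowest signal above background on each dim array, or the probe's own where that is higher. Intensities differ with probe design, so no level is compared between genes.

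On all 3 periotic arrays 10927 probes were above background and on all 3 embryo-minus-otic arrays 10564, and the median SD between arrays of a group was 0.10 in periotic tissue and 0.11 in embryo-minus-otic. An OV array stood apart from the other OV arrays at many probes far higher in embryo-minus-otic than in periotic tissue. Of the 49 probes at least 4-fold higher in embryo-minus-otic than in periotic tissue, OV array 1 was the highest OV array for 39, and it was above background at 34 of them against 13 and 11 for OV arrays 2 and 3. For *Myl2*, a heart muscle gene, it read 7.53 where the others read 5.59 and 5.65. The periotic arrays shared the highest place among themselves more evenly at these 49 probes, with 17, 14 and 18. Without OV array 1 the counts of called probes were 667 higher in periotic tissue and 699 higher in embryo-minus-otic, against 736 and 757 with it.

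With all arrays, 736 probes were higher in periotic tissue, 2.86% of the 25697 tested, and 757 were higher in embryo-minus-otic, 2.95%. The counts were alike but the sizes were not. At 2-fold or more there were 78 probes higher in periotic tissue and 151 higher in embryo-minus-otic, at 3-fold or more 9 and 69, and at 4-fold or more 0 and 49. Of the 757 probes called higher in embryo-minus-otic, 175 were above background on no periotic array. Of the 736 called higher in periotic tissue, 81 were above background on no embryo-minus-otic array. Among all probes, 152 were above background on all embryo-minus-otic arrays and on no periotic array, and 142 of these were called. Of the 158 probes with the opposite pattern 71 were called. These sets were picked by detection in the higher group, so their call rates are no separate test of a difference. In a bulk sample fewer cells of a type and less RNA per cell cannot be told apart, and this holds for every gene below. Scaling each array to its median in place of quantile normalization gave 812 and 315 called probes, so that 72.0% of calls were higher in periotic tissue where the main setting had 49.3%, and 145 and 122 at 2-fold or more, so that the excess of large differences in embryo-minus-otic at this size turned. Without periotic array 2 the first count was 482.

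**Figure D1:**
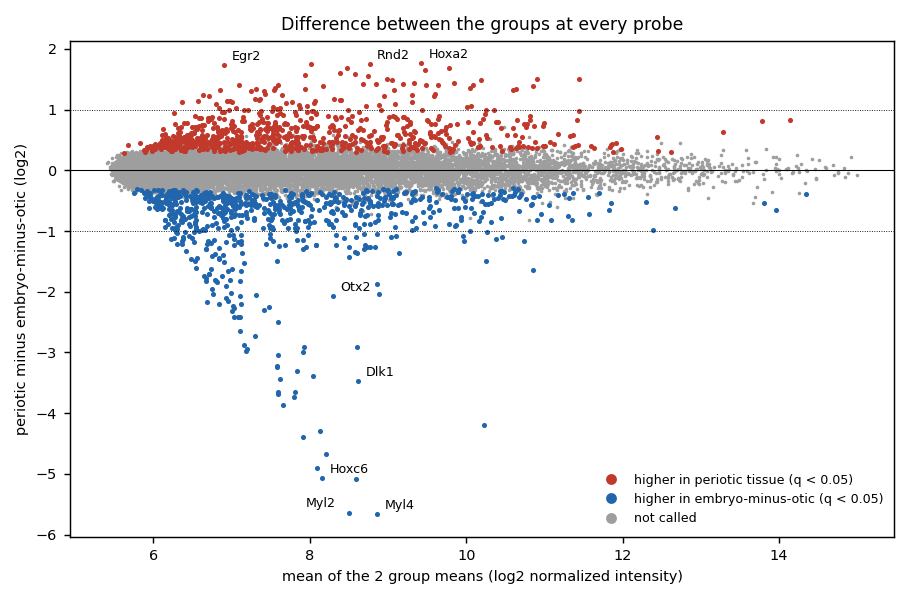
Difference between periotic tissue and embryo-minus-otic on the log2 scale (vertical axis) against the mean of both group means in log2 normalized intensity (horizontal axis), with a point for each of the 25697 probes and dotted lines at 2-fold. Probes higher in periotic tissue end at a difference of 1.76, whereas those higher in embryo-minus-otic reach -5.66.

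The periotic side was led by genes of the hindbrain and of young neurons. The largest difference was that of *Hoxa2*, which specifies the second branchial arch and has the most anterior limit of all Hox genes in the hindbrain. It read 10.12, 10.44 and 10.37 on the periotic arrays and 8.36, 8.70 and 8.57 on the embryo-minus-otic arrays (3.39-fold, difference 1.76, SE 0.12, limma *q* = 1.91e-07), and its other probe gave 1.59. After it came *Rnd2*, which the array lists as *Rohn*, a small GTPase of migrating neurons, *Olig3*, a factor of dorsal neural progenitors, *Egr2*, also known as Krox20, a factor of alternating rhombomeres, and *Hoxb2*, all with their values below. Genes outside the lists below were *Chrna4*, a subunit of the neuronal nicotinic acetylcholine receptor (3.20-fold, and 2.84-fold at its other probe), *Rfx4*, a transcription factor of the neural tube (3.13-fold), *Rassf4*, a member of the Ras association domain family (3.04-fold), and *Ly6h*, a membrane-anchored protein of the brain (2.92-fold). *Hoxb1*, *Ednrb*, *Crabp1* and *Nes* complete the 15 leading probes and are described with their groups. Absence of overlap between periotic and embryo-minus-otic arrays was a condition for picking these 15 probes. It held for 733 of the 736 probes called higher in periotic tissue. Among all probes of the array, called or not, 2721 had no overlap with periotic tissue higher and 2361 with embryo-minus-otic higher. Absence of overlap, here and below, is thus no separate evidence of a difference. Against OV, periotic tissue was higher at the leading 5 as well, by differences from 1.75 for *Egr2* to 3.44 for *Hoxb2* (limma with Benjamini-Hochberg adjustment, largest *q* 6.85e-07).

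The embryo-minus-otic side was led by heart muscle, trunk Hox genes and mesoderm. *Myl4* and *Myl2*, myosin light chains of the atrium and the ventricle, had the largest differences as read, with *Myl4* above background on 1 periotic array, so they are not ranked against each other. *Myl2* read 11.43, 11.08 and 11.46 in embryo-minus-otic and 5.83, 5.50 and 5.71 in periotic tissue, where no array was above background (at least 35.2-fold, limma *q* = 3.87e-08). *Actc1*, cardiac actin, was at least 30.9-fold higher and at least 20.6-fold at its other probe, and *Hoxc6* was at least 22.8-fold higher. *Myl3*, *Tnnc1*, *Nppa*, *Meox1*, *Myl7*, *Hoxc9* and *Hoxa5* followed with bounds between 9.44-fold and 20.5-fold. Of the leading 15 probes, 11 were above background on no periotic array. An exception was *Acta2*, smooth muscle actin, which the array lists as *0610041G09Rik* and which read 7.94, 8.13 and 8.31 in periotic tissue against 12.34, 12.12 and 12.52 (18.4-fold, limma *q* = 1.30e-05). Embryo-minus-otic was higher than OV too, by 5.28 for *Myl4*, 5.06 for *Myl2*, 4.76 for *Actc1* and 4.63 for *Hoxc6* on the log2 scale.

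**Figure D2:**
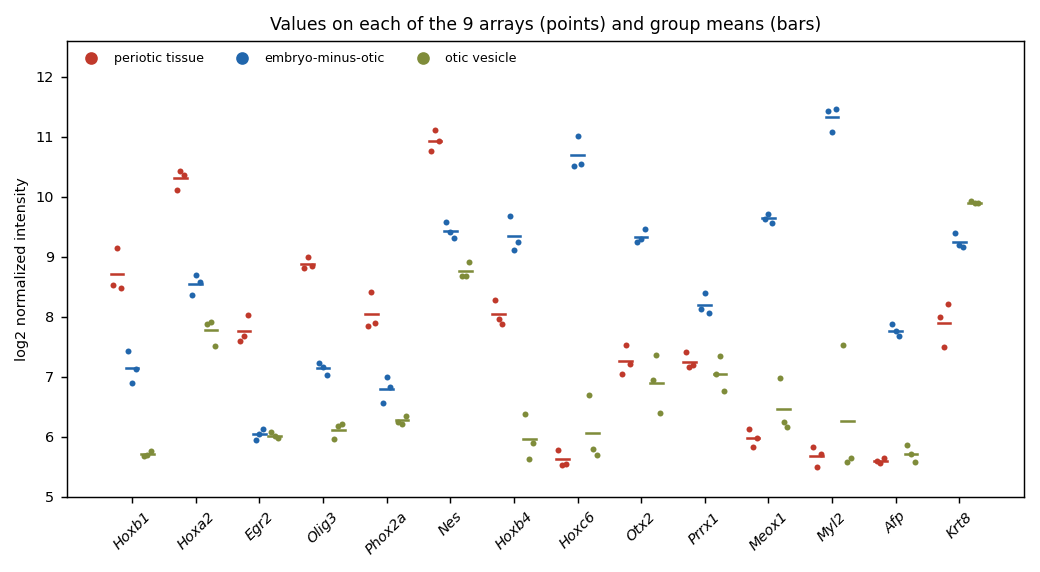
Log2 normalized intensity (vertical axis) of 14 genes on each of the 9 arrays, with a point per array, a bar at each group mean (n = 3 arrays) and the groups side by side. *Hoxb1*, *Hoxa2*, *Egr2*, *Olig3*, *Phox2a* and *Nes* were higher on every periotic array than on every embryo-minus-otic array, and the other 8 genes were lower. *Krt8* was highest in OV.

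Upstream sequences are shown for some Hox, rhombomere and heart genes among the leading 15 probes of each direction. Each holds the letters marked in it, so they are examples and give no share. *Myl4* and *Myl2*, which hold no CArG box, described below, are not shown. They were taken from RefSeq on build GRCm38.p6 and cover the 250 bases before the annotated start. Letters searched on both strands were TGATNNAT, the site that Hox proteins bind together with their cofactor Pbx, shown in capitals for *Hoxb1* and *Hoxa2* (on the opposite strand for *Hoxa2*), and the CArG box, the site of serum response factor, shown in capitals for the others. *Hoxb1* lies at chr11:96365508-96365757 on the plus strand, *Hoxa2* at chr6:52164832-52165081 on the minus strand, *Egr2* at chr10:67537316-67537565 on the plus strand, which is 1 of its 5 annotated starts, *Actc1* at chr2:114052876-114053125 on the minus strand and *Myl7* at chr11:5898783-5899032 on the minus strand.
Hoxb1: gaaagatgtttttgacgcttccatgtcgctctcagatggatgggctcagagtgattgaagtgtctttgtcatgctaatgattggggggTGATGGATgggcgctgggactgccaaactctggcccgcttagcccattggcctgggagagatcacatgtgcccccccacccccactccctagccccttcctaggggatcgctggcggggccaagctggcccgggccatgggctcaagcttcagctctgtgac
Hoxa2: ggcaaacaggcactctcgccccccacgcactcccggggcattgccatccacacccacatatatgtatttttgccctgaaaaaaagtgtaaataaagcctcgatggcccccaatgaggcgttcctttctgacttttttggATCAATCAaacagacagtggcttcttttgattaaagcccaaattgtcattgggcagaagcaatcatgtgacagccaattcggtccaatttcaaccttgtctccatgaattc
Egr2: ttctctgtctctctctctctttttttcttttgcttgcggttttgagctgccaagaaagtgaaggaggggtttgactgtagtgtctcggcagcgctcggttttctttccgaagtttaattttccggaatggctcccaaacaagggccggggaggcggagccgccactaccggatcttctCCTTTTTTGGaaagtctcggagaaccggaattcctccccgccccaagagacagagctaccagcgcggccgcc
Actc1: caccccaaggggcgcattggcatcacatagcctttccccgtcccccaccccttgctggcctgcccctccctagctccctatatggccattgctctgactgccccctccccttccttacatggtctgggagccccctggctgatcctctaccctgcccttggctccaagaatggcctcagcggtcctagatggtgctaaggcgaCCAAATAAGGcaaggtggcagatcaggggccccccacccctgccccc
Myl7: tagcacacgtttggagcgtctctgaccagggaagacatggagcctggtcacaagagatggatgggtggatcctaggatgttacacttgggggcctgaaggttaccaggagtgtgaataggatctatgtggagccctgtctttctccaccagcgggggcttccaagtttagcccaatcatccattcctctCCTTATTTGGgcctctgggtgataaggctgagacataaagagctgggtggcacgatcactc

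Of all 32851 upstream sequences in the table, 7.68% held TGATNNAT and 1.47% a CArG box, and of all genes with an entry 8.81% and 1.62% did in at least 1. Both Hox genes higher in periotic tissue that have an entry, *Hoxb1* and *Hoxa2*, held TGATNNAT, 162 and 111 bases before the start. Of the 10 Hox genes higher in embryo-minus-otic that have an entry, 0 did. TGATNNAT also stood before *Egr2*, as 1 of 6 hindbrain segmentation genes higher in periotic tissue, and before 2 of the 20 heart muscle genes higher in embryo-minus-otic, *Myl2* and *Nppb*. Of the 20 heart muscle genes higher in embryo-minus-otic, 4 held a CArG box in at least 1 entry, namely *Actc1*, *Myl3*, *Myl7* and *Myom1*. A CArG box also stood before *Egr2*, which was higher in periotic tissue. A match of letters is a description and shows no binding.

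Hox genes split by paralog group. By gene, with the brightest probe standing for each of 17847 genes, 3.27% of all genes were higher in periotic tissue and 3.55% were higher in embryo-minus-otic. Of 39 Hox genes measured, 3 were higher in periotic tissue, and these are of groups 1 and 2, while 19 were higher in embryo-minus-otic. The members of paralog groups 1 to 4 had a median difference of -0.02, those of groups 5 to 8 of -2.65 and those of groups 9 to 13 of -0.36, beside 0.0033 over all genes.

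*Hoxb1*, which marks a single rhombomere, read 8.53, 9.14 and 8.48 in periotic tissue and 7.43, 6.90 and 7.13 in embryo-minus-otic (2.96-fold, difference 1.57, SE 0.16, limma *q* = 9.52e-06), and both of its probes were called. It was above background on no OV array. *Hoxb2*, which acts downstream of Egr2 in the hindbrain, read 10.60, 10.74 and 10.52 against 9.06, 9.09 and 8.67. All 3 periotic values of these genes lie above all embryo-minus-otic values, but embryo-minus-otic was above background too. *Hoxd1* was above background on no array of either group and was not called.

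Group 3 was not called in either direction. *Hoxd3* read 8.76, 8.81 and 8.35 in periotic tissue and 8.10, 8.36 and 8.32 in embryo-minus-otic (difference 0.38, SE 0.12, limma *q* = 0.10), so the groups overlap. *Hoxb3* was above background on all 6 arrays with a difference of -0.04, and *Hoxa3* on none. From group 4 on, every called Hox gene was higher in embryo-minus-otic. *Hoxb4* and *Hoxd4*, whose hindbrain limit lies behind the ear, were still above background on all periotic arrays. *Hoxd4* read 8.24, 7.74 and 7.61 there against 10.08, 10.09 and 9.54 (4.11-fold, limma *q* = 1.83e-05), and *Hoxb4* 8.29, 7.97 and 7.88 against 9.68, 9.12 and 9.25 (2.47-fold, limma *q* = 0.00017). *Hoxa4* was above background on 1 periotic array (2.23-fold), and *Hoxc4* on none of either group.

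From group 5 on, the periotic arrays were near background. Of the 15 called genes of groups 5 to 13, all higher in embryo-minus-otic, *Hoxc10* was above background on 1 periotic array and the other 14 on none. The bounds were at least 22.8-fold for *Hoxc6*, 9.50-fold for *Hoxc9*, 9.44-fold for *Hoxa5*, 8.14-fold for *Hoxb5*, 5.62-fold for *Hoxd10*, 5.59-fold for *Hoxa7*, 5.34-fold for *Hoxb7*, 4.75-fold for *Hoxd8*, 3.93-fold for *Hoxd9* and 2.25-fold for *Hoxb6*. *Hoxc6*, a gene of the thoracic level and the forelimb bud, read 10.52, 11.01 and 10.54 in embryo-minus-otic and 5.78, 5.53 and 5.55 in periotic tissue. *Hoxb9*, *Hoxa9*, *Hoxd12* and *Hoxa11* had bounds from 1.12-fold to 1.69-fold, and *Hoxc10* was 2.23-fold higher.

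The 12 genes of these groups that were not called had differences between -0.17 and 0.10. They were *Hoxa6*, *Hoxc5*, *Hoxc8*, *Hoxb8*, *Hoxa10*, *Hoxc11*, *Hoxd11*, *Hoxc12*, *Hoxa13*, *Hoxb13*, *Hoxc13* and *Hoxd13*. *Hoxa13* was above background on all arrays of both groups with a difference of 0.03, *Hoxc13* on 1 array of each group, *Hoxc8* on 1 embryo-minus-otic array and the other 9 on none, so for those a difference was not detectable on these arrays.

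**Figure D3:**
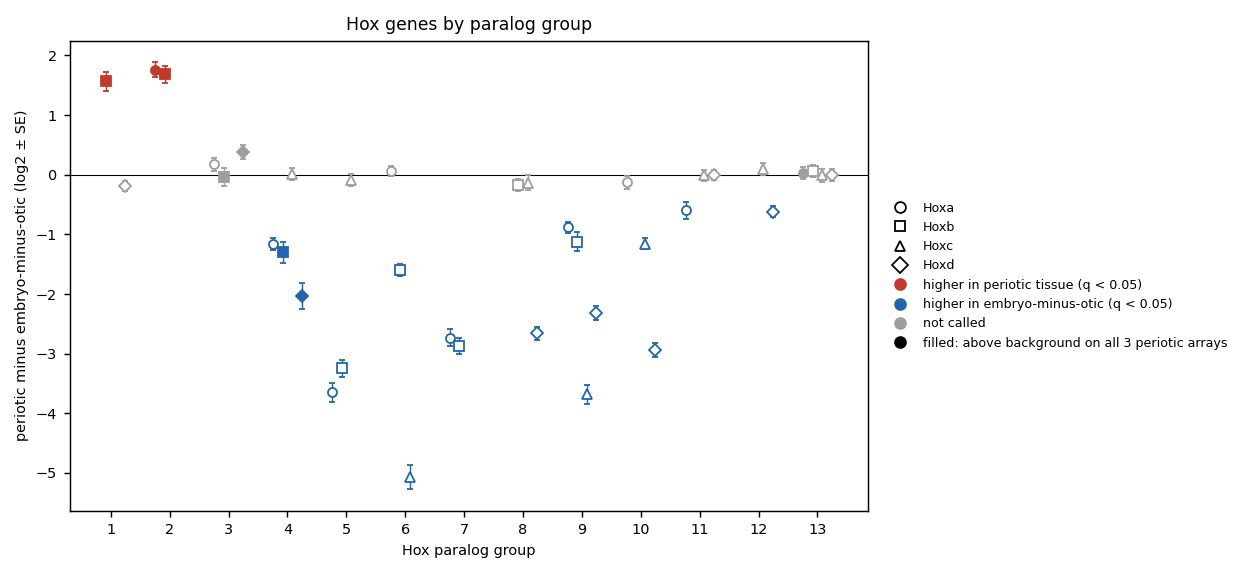
Difference of Hox genes on the log2 scale with its SE (vertical axis) by paralog group (horizontal axis), marker shape giving the cluster and colour the call, filled where all 3 periotic arrays were above background. *Hoxb1*, *Hoxa2* and *Hoxb2* lie between 1.57 and 1.76, and every called gene from group 4 on lies below 0, down to -5.07 for *Hoxc6*.

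The segmentation genes of the hindbrain were higher in periotic tissue or not called. Of 11 measured, 6 were higher there and 0 in embryo-minus-otic, with a median of 0.53. *Egr2* read 7.59, 7.68 and 8.04 in periotic tissue and 5.94, 6.05 and 6.13 in embryo-minus-otic, where it was above background on no array (at least 2.94-fold, limma *q* = 4.91e-08), nor was it on any OV array. *Cyp26b1*, an enzyme that degrades retinoic acid in rhombomeres, shared this pattern with 6.68, 7.15 and 6.96 against 5.81, 5.96 and 5.63 (at least 1.64-fold, limma *q* = 1.21e-05). Both were thus measured in periotic tissue alone among the 3 tissues.

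*Irx2* and *Irx3*, Iroquois factors of neural patterning, were 2.72-fold and 1.47-fold higher, *Epha7*, an ephrin receptor that keeps cells of neighbouring segments apart, 1.99-fold, and *Gbx2*, a factor of the anterior hindbrain, 1.44-fold. *Irx2*, called at 1 of its 2 probes, read 10.11, 10.14 and 9.93 against 8.65, 8.67 and 8.52. *Epha7* read 8.79, 8.75 and 9.41 against 7.97, 7.97 and 8.02. All 4 genes were above background on every OV array too, with OV means of 9.82 for *Irx2*, 9.14 for *Epha7*, 11.22 for *Irx3* and 12.24 for *Gbx2*. *Nr2f1*, a nuclear receptor, gave a difference of 0.44 (SE 0.13, limma *q* = 0.0687), and *Irx1* one of 0.39 (*q* = 0.16). *Fgf3* and *Epha4*, both used as hindbrain markers, differed by at most 0.04, and neither was above background on more than 2 arrays of either tissue.

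Forebrain and midbrain genes went the other way, as 10 of 17 were higher in embryo-minus-otic and 0 in periotic tissue, with a median of -0.41. *En2*, the Engrailed factor of the midbrain and its border with the hindbrain, read 9.38, 9.27 and 9.35 in embryo-minus-otic and 5.99, 5.79 and 5.90 in periotic tissue (at least 8.88-fold, limma *q* = 5.83e-10). *Otx1* and *Otx2*, the head factors that stop at that border, were higher by differences of -3.39 and -2.07, with *Otx1* above background on 2 periotic arrays. *Otx1* had its highest mean, 9.89, in OV, beside 9.74 in embryo-minus-otic. *Otx2* was above background on all periotic arrays with 7.05, 7.53 and 7.21, against 9.24, 9.30 and 9.46, so the groups did not overlap but the gene was measured in both. *Nkx2-1*, which the array lists as *Titf1*, a factor of the ventral forebrain, thyroid and lung, was at least 2.58-fold higher, called at 1 of its 2 probes. *Lhx2* and *Wnt8b* were at least 1.53-fold and at least 1.31-fold higher. *Fezf2*, *Vax1* and *Dmbx1* were called with differences from -0.41 to -0.37, *Dmbx1* without being above background on any array of either group. *Lhx5*, *En1*, *Six3*, *Rax*, *Emx2* and *Six6* were not called, and of these *Lhx5* alone was above background on all 6 arrays.

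Along the dorsoventral axis, 8 of 23 dorsal genes were higher in periotic tissue and 0 in embryo-minus-otic. *Olig3* read 8.81, 9.003 and 8.84 against 7.23, 7.16 and 7.02 (difference 1.74, SE 0.10, limma *q* = 1.26e-08). *Wnt3a*, a signal of the roof plate, read 9.93, 9.85 and 9.91 against 8.63, 8.32 and 8.50 (2.67-fold), and *Wnt1*, also a roof plate signal, was 1.82-fold higher, with 1 embryo-minus-otic array above background. *Dbx1*, a factor of the intermediate progenitors, read 10.04, 10.42 and 10.23 against 8.94, 9.15 and 8.85 (2.38-fold).

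*Gsx1*, which the array lists as *Gsh1*, and *Ptf1a*, both of dorsal interneuron progenitors, were above background on all periotic arrays and on no embryo-minus-otic array (at least 2.05-fold and at least 1.48-fold). *Lmx1a*, a roof plate factor, was 1.41-fold higher, although it had its highest mean, 10.18, in OV. *Zic1*, *Neurog2* and *Rspo3*, above background on all 6 arrays but not called, differed by 0.54 (limma *q* = 0.13), 0.27 and -0.30. *Pax3*, *Pax7*, *Gdf7*, *Atoh1* and *Lmx1b*, among others of this list, were at or near background in both groups.

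Of 10 ventral genes 3 were higher in periotic tissue, the Nkx factors *Nkx6-1*, *Nkx2-2* and *Nkx2-9*, and 1 in embryo-minus-otic, with a median of -0.01. *Nkx6-1* read 9.53, 9.54 and 9.12 against 8.07, 8.09 and 7.76 (2.68-fold, limma *q* = 1.12e-05), *Nkx2-2* was 2.23-fold higher, and *Nkx2-9* was measured in periotic tissue alone (at least 1.52-fold). *Olig1*, a factor of the ventral neural tube and of oligodendrocytes, was 1.70-fold higher in embryo-minus-otic and had its highest mean, 7.96, in OV. *Shh*, the signal of floor plate and notochord, was above background on all 6 arrays with a difference of -0.09 (limma *q* = 0.86). *Foxa2* and *Ntn1*, also of the floor plate, differed by 0.17 and -0.01.

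**Figure D4:**
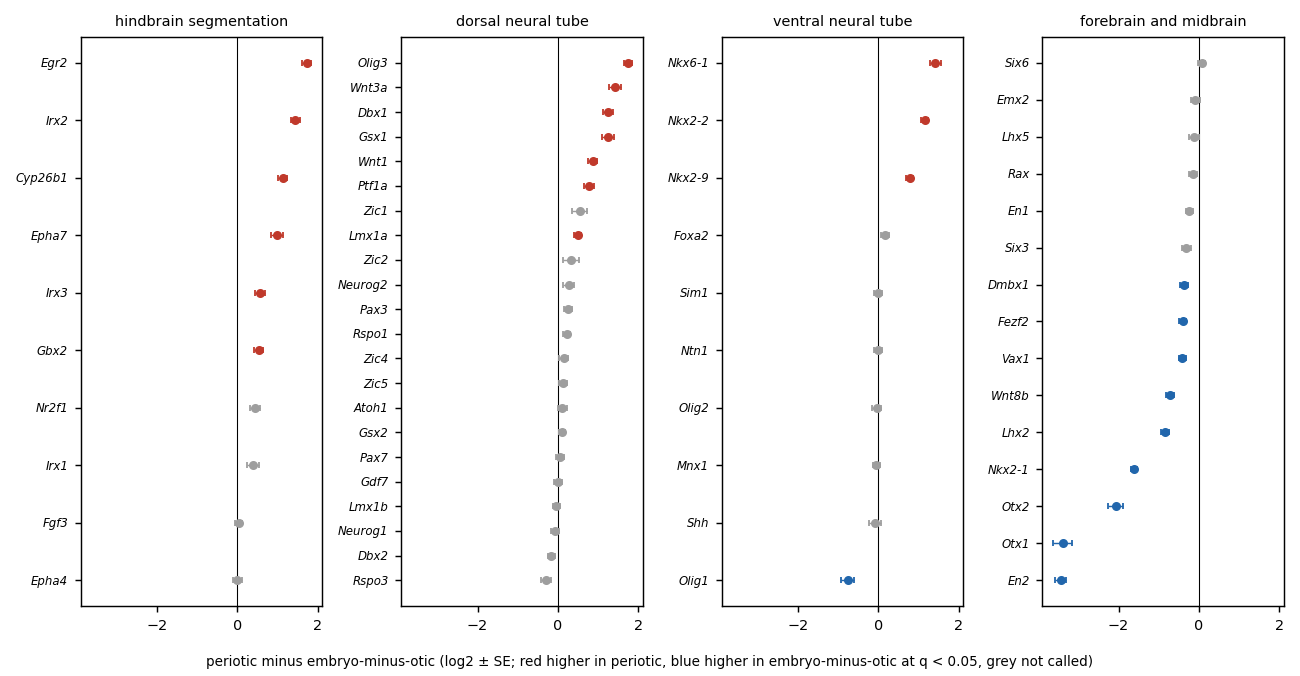
Differences on the log2 scale with their SE (horizontal axis) for genes (vertical axis) of 4 lists of neural patterning, from the fit of 3 groups of 3 arrays. All called hindbrain segmentation and dorsal genes lie above 0, and all called forebrain and midbrain genes lie below 0, from *Dmbx1* to *En2* at -3.44.

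Called genes of neural progenitors and young neurons were higher in periotic tissue. Of 12 progenitor genes 7 were called, all in that direction, with a median of 0.67. *Nes*, the intermediate filament of neural progenitors, read 10.76, 11.12 and 10.93 against 9.58, 9.42 and 9.31 (2.82-fold, limma *q* = 3.36e-07). *Hes5*, an effector of Notch signalling, read 10.41, 10.90 and 10.39 against 9.35, 9.29 and 8.75 (2.70-fold). *Fabp7*, a fatty acid binding protein of radial glia (1.94-fold), the Notch ligands *Dll1* (1.72-fold) and *Dll3* (1.63-fold), *Sox21* (1.70-fold) and the receptor *Notch1* (1.54-fold) were also higher. *Sox2*, *Sox3* and *Pax6* were not called, with 0.35, 0.34 and -0.06.

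Of 19 genes of postmitotic neurons 8 were higher in periotic tissue and 0 in embryo-minus-otic. After *Rnd2*, which read 9.42, 10.05 and 9.46 against 7.66, 8.18 and 7.85, the largest were *Nefm*, a neurofilament subunit (2.51-fold), *Stmn2* (2.32-fold) and *Dcx* (2.08-fold), regulators of microtubules, and *Ina*, an intermediate filament of neurons (2.00-fold). The RNA-binding proteins *Elavl4* and *Elavl3* and the microtubule protein *Map2*, listed as *Mtap2*, were 1.97-fold, 1.58-fold and 1.79-fold higher. *Isl1*, a factor of motor and sensory neurons that the heart also expresses, differed by -0.29 (limma *q* = 0.49), *Gap43* by 0.31 and *Stmn3* by 0.38, none of them called. The probe of *Tubb3* was above background on no array of either group.

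Genes of cranial ganglia gave 4 of 10 higher in periotic tissue. *Phox2a*, a factor of visceral motor and sensory neurons, read 7.85, 8.41 and 7.89 against 6.57, 6.998 and 6.83 (2.38-fold, limma *q* = 2.50e-05), and *Neurod4* 8.60, 8.58 and 8.48 against 7.46, 7.59 and 7.78 (1.92-fold). The neurotrophin receptors *Ntrk2* and *Ntrk3* were 1.52-fold and 1.37-fold higher, each at a single called probe, 1 of 3 for *Ntrk2* and 1 of 4 for *Ntrk3*. *Ntrk3* was above background on 1 embryo-minus-otic array. *Neurod1*, *Pou4f1* and *Tlx3*, markers of sensory neurons, differed by -0.07, -0.11 and 0.39 and were not called.

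Of 10 genes of the neural crest and its glial and pigment derivatives, 1 was higher in periotic tissue. This was *Ednrb*, the endothelin receptor of crest cells, which neural progenitors also express, with 11.67, 11.74 and 11.57 against 10.11, 10.26 and 10.09 (2.84-fold, limma *q* = 1.96e-08). *Mitf* and *Dct*, of pigment cells, were called higher in embryo-minus-otic but were above background on no array of either group. This count of 2 was 0 without periotic array 2 and without normalization between arrays, 2 without embryo-minus-otic array 1, and 1 when any other single array was left out. *Ets1*, *Tfap2b* and *Sox9*, above background on all 6 arrays, differed by at most 0.12 in size.

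Mesenchyme is a named component of periotic tissue. Of 20 genes of head and general mesenchyme 13 were higher in embryo-minus-otic and 0 in periotic tissue, with a median of -0.67. *Dcn*, a matrix proteoglycan (3.17-fold), *Twist2* (2.15-fold), *Pdgfra*, a growth factor receptor of mesenchyme (2.14-fold), and *Foxc2* (2.06-fold) were among them. Of the 13, 11 were above background on all periotic arrays as well. *Pdgfra* read 8.52, 8.27 and 8.69 there against 9.52, 9.78 and 9.47, and *Prrx1* 7.41, 7.16 and 7.19 against 8.13, 8.40 and 8.07 (1.92-fold).

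*Foxc1* and *Twist1* were both 1.85-fold higher in embryo-minus-otic, *Snai1* was 1.77-fold, and the collagens *Col3a1* and *Col1a1* were 1.67-fold and 1.52-fold. *Lum* and *Alx1*, the latter listed as *Cart1*, were called with -0.53 and -0.52. Among genes not called, *Tbx1*, a factor of pharyngeal mesoderm and of the ear, differed by 0.33 (limma *q* = 0.065), *Pdgfrb* by -0.10 and *Col1a2* by -0.19. The count of 13 was 7 under median normalization.

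Of 17 pharyngeal arch genes 9 were higher in embryo-minus-otic and 1 in periotic tissue. *Barx1*, a factor of the arches and the stomach, was at least 3.46-fold higher in embryo-minus-otic, *Dlx1* 2.26-fold, *Gsc* at least 1.66-fold, *Dlx2* 1.81-fold and *Foxf1*, listed as *Foxf1a*, at least 1.53-fold. *Dlx3*, *Hand2*, *Edn1* and *Lhx8* were called with differences from -0.64 to -0.37. *Dlx1* read 6.13, 6.43 and 6.94 in periotic tissue against 7.46, 7.80 and 7.76. The gene higher in periotic tissue was *Msx2*, a homeobox factor of arch mesenchyme and dorsal midline, with 7.01, 6.94 and 6.95 against 6.51, 6.64 and 6.67 (1.29-fold, limma *q* = 0.0351), a call that was lost when any 1 of the 6 arrays was left out. *Msx1*, *Ednra* and *Dlx5* differed by 0.01, -0.24 and -0.13 and were not called.

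Of 14 somite and muscle precursor genes 7 were higher in embryo-minus-otic and 7 were not called. *Meox1*, a somite factor, read 9.63, 9.72 and 9.56 against 6.14, 5.83 and 5.99 (at least 11-fold, limma *q* = 1.13e-09), and *Meox2* and *Tcf15*, also of somites, were at least 3.53-fold and at least 3.25-fold higher. *Tbx6*, *Myf6* and *Uncx*, listed as *Uncx4.1*, were called with differences from -0.65 to -0.57. *Uncx* alone of the 7 was above background in periotic tissue. *Pax1*, *Myod1* and the brighter probe of *Myog* were at background in both groups, and the other probe of *Myog* was above background on 0 periotic and 3 embryo-minus-otic arrays and was called.

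Of 18 limb and tail genes 8 were higher in embryo-minus-otic, or 5 under median normalization, and 10 were not called. *Fgf8*, the signal of the limb ridge, the midbrain border and the tail bud, was at least 4.10-fold higher, *Tbx3* 4.17-fold, *Cdx2*, a factor of the tail, at least 2.14-fold, *Fgf10* 2.10-fold and *T*, Brachyury, at least 1.5-fold. *Fgf10* was called at 2 of its 3 probes. *Tbx3* was above background on 1 periotic array, so its fold is as read. *Tbx2*, *Shox2* and *Wnt5a* were called with -0.71, -0.69 and -0.56. *Tbx3*, *Tbx2* and *Fgf10* had OV means of 9.22, 9.06 and 9.81, above those of both other tissues. *Sall4*, *Lin28a* and *Evx1* were above background on all 6 arrays and differed by at most 0.21 in size.

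Of 25 heart muscle genes 20 were higher in embryo-minus-otic and 0 in periotic tissue, with a median of -1.33. Of the 20, *Myl4* and *Ankrd1* were above background on 1 periotic array each and the other 18 on none. *Myl4* read 11.84, 11.55 and 11.69 against 5.91, 6.23 and 5.97 (difference -5.66, limma *q* = 2.38e-08), and no fold is given because the other 2 periotic arrays give only an upper limit. *Myl3*, *Tnnc1*, a troponin, *Nppa*, the atrial natriuretic peptide, and *Myl7* were at least 20.5-fold, 17.1-fold, 15.2-fold and 10.6-fold higher. *Csrp3*, *Actn2*, *Myh6*, *Ttn* and *Nppb*, genes of the sarcomere and, for *Nppb*, the ventricular natriuretic peptide, had bounds from 1.86-fold to 5.61-fold, and *Ankrd1* gave a difference of -2.41, measured against 1 periotic array.

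*Nkx2-5*, the factor that specifies heart muscle, was at least 1.53-fold higher, and *Myom1*, *Mybpc3*, *Tnni1*, *Smpx*, *Pln* and *Myh7* had bounds from 1.05-fold to 1.87-fold. Summed over the 25 genes, the linear intensity was 13982 to 16696 on the embryo-minus-otic arrays, 1413 to 1448 on the periotic arrays, and 2126, 1450 and 1437 on OV arrays 1 to 3. *Tbx20*, *Tnni3*, *Ldb3*, *Ryr2* and *Casq2* were above background on no array of either group.

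Globin RNA was measured in both tissues. The embryonic globins *Hbb-y* and *Hbb-bh1* and the alpha globin *Hba-a1* were above background on all 6 arrays with differences of -0.22, -0.35 and -0.53 (smallest limma *q* 0.34). Of 17 erythroid genes 2 were higher in embryo-minus-otic, among them *Klf1*, the erythroid factor (1.76-fold). The list summed to 65824 to 72334 in embryo-minus-otic and 49278 to 58247 in periotic tissue. The count was 0 under median normalization. It was 1 without embryo-minus-otic array 1 or 3, OV array 2 or periotic array 2 or 3, 3 without periotic array 1, 4 without OV array 1 or 3 and 5 without embryo-minus-otic array 2.

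Endothelial genes were also measured in both, and 3 of 18 were higher in embryo-minus-otic. *Plvap*, a protein of vessel diaphragms, was 1.67-fold higher, and *Icam2* and *Fli1* were 1.33-fold and 1.30-fold higher. *Egfl7*, *Emcn* and *Esam* differed by -0.03, -0.25 and -0.12 and were not called, and under median normalization no gene of this list was. Of 12 genes of macrophages and other blood cells limma called 0, and 1 had an unadjusted p under 0.05. *Pf4*, *Csf1r* and *Gp9* differed by -0.12, 0.05 and -0.33 with *q* from 0.11 to 0.88.

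Of 26 genes of liver and endoderm 7 were higher in embryo-minus-otic and 1 in periotic tissue, and 18 were not called. *Dlk1*, a membrane protein of hepatoblasts and many embryonic tissues, read 10.16, 10.56 and 10.34 against 6.95, 6.93 and 6.77 (11.1-fold, limma *q* = 5.83e-10). *Gata6*, a factor of endoderm and heart, was at least 7.6-fold higher, *Afp*, alpha-fetoprotein, at least 3.01-fold, *Apoa2* at least 2.51-fold and *Ttr* 2.34-fold. *Ttr* was above background on 2 periotic arrays. *Foxa3* and *Fgg* were called with -0.40 and -0.38. *Prox1*, of liver and of neural progenitors, was the gene higher in periotic tissue (1.30-fold, limma *q* = 0.0367), and without periotic array 1 or 2, or embryo-minus-otic array 1 or 2, it was not called. *Hhex*, *Foxa1* and *Sox17* differed by -0.33, -0.14 and -0.27.

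Of 11 genes of the coelomic lining, kidney and gonad 5 were higher in embryo-minus-otic, or 3 under median normalization, and 6 were not called. *Wt1*, the Wilms tumour factor of the mesothelium and nephric tissue, read 8.20, 8.48 and 8.18 against 5.90, 5.90 and 5.81 (at least 4.30-fold, limma *q* = 8.36e-10). *Upk3b* and *Tcf21* were at least 1.83-fold and at least 1.52-fold higher and *Gdnf*, the growth factor of the kidney and gut, 1.59-fold. *Upk3b* was called at 2 of its 3 probes and *Gdnf* at 1 of its 2. *Aldh1a1* was called but was above background on no array of either group. *Podxl*, *Cited1* and *Lhx9* differed by -0.15, -0.13 and -0.24.

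Of 33 epithelial genes measured, 12 were higher in embryo-minus-otic and 0 in periotic tissue. *Krt8*, listed as *Krt2-8*, and *Krt18*, listed as *Krt1-18*, keratins of simple epithelia, were 2.54-fold and 2.16-fold higher. *Krt8* read 8.001, 7.51 and 8.21 in periotic tissue, 9.40, 9.19 and 9.16 in embryo-minus-otic and had a mean of 9.90 in OV. *Wfdc2*, listed as *1600023A02Rik* (2.56-fold), *Cldn6*, a tight junction protein (2.39-fold), and *Esrp1*, listed as *Rbm35a*, a splicing factor of epithelia (2.34-fold), were higher in embryo-minus-otic too. *Wfdc2* was called at 1 of its 2 probes.

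*Tfap2c*, listed as *Tcfap2c*, and *Trp63*, both of surface ectoderm, were 1.91-fold and 1.61-fold higher. *Cdh3*, *Cldn4*, *Wnt6*, *Ap1m2* and *Cdh1* were called with differences from -0.90 to -0.41. All 12 were above background on every embryo-minus-otic array, and *Ap1m2* was the one that was not on every periotic array. *Grhl2*, *Prss8* and *Lsr* differed by -0.41, -0.35 and -0.35 and were not called. The list summed to 5750 to 6654 in embryo-minus-otic, 3211 to 3839 in periotic tissue and 23724 to 25628 in OV, and its count was 7 under median normalization. Part of this list is genes that the paper ranks high in OV from these same arrays, so its high OV sum is no independent result.

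Of 16 genes of the OV itself, 0 were called higher in periotic tissue and 1 in embryo-minus-otic. The latter count was 0 without periotic array 1 or 2 or embryo-minus-otic array 1, under median or no normalization and with neqc background correction, and the former was 1 without periotic array 3 and with array weights. The list summed to 1461 to 1719 in periotic tissue, 1680 to 1795 in embryo-minus-otic and 8570 to 9277 in OV. It holds genes that the paper ranks high in OV from these same arrays, so its high OV sum is no independent result. *Gata3*, *Jag1* and *Bdnf* were above background on all 6 arrays and differed by -0.22, 0.18 and -0.30. *Col9a2* was above background on 2 periotic arrays, *Fbxo2*, *Lfng* and *Spp1* on 1 each, and *Otol1*, listed as *Gm414*, *Oc90*, *Eya1*, *Pax2*, *Pax8*, *Myo7a*, *Hmx2* and *Hmx3* on none, with differences from -0.27 to 0.36 over these 12.

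Of 10 genes of the eye and lens 1 was called, *Cryab*, a small heat shock protein of lens and muscle, at least 1.4-fold higher in embryo-minus-otic. *Pmel* and *Cryaa* differed by -0.20 and 0.02.

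Genes of the retinoic acid pathway were called in both directions. Retinoic acid is made from vitamin A by Aldh1a enzymes in the trunk, is degraded by Cyp26 enzymes in the head and hindbrain, and patterns the posterior hindbrain. Of 12 measured genes 2 were higher in periotic tissue, the binding proteins *Crabp1* and *Crabp2*, and 5 in embryo-minus-otic. *Crabp1* read 12.21, 11.96 and 12.41 against 10.85, 10.61 and 10.61 (2.83-fold, limma *q* = 1.48e-06) and *Crabp2* 11.48, 11.18 and 11.26 against 10.02, 9.74 and 10.16 (2.52-fold). No periotic value overlaps an embryo-minus-otic value in either gene. The embryo-minus-otic side included the synthetic enzymes *Aldh1a2* (at least 1.68-fold) and *Aldh1a3* (at least 1.36-fold), the retinol transporter *Stra6* (2.33-fold) and the receptor *Rarb* (2.41-fold).

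*Aldh1a2* was above background on all embryo-minus-otic arrays, with 6.65, 7.09 and 7.04, and on no periotic array. *Rarb*, itself a target of retinoic acid, read 7.59, 7.20 and 7.15 in periotic tissue against 8.50, 8.74 and 8.51. *Rara* and *Rarg* differed by 0.26 and -0.27 and were not called, though another probe of *Rarg* was higher in embryo-minus-otic, and *Cyp26a1*, *Dhrs3* and *Rdh10* were at background in both groups. Of the degrading enzymes measured, *Cyp26b1*, counted above among the segmentation genes, was the one above background in periotic tissue. *Cyp26c1* was not matched to a probe.

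**Figure D5:**
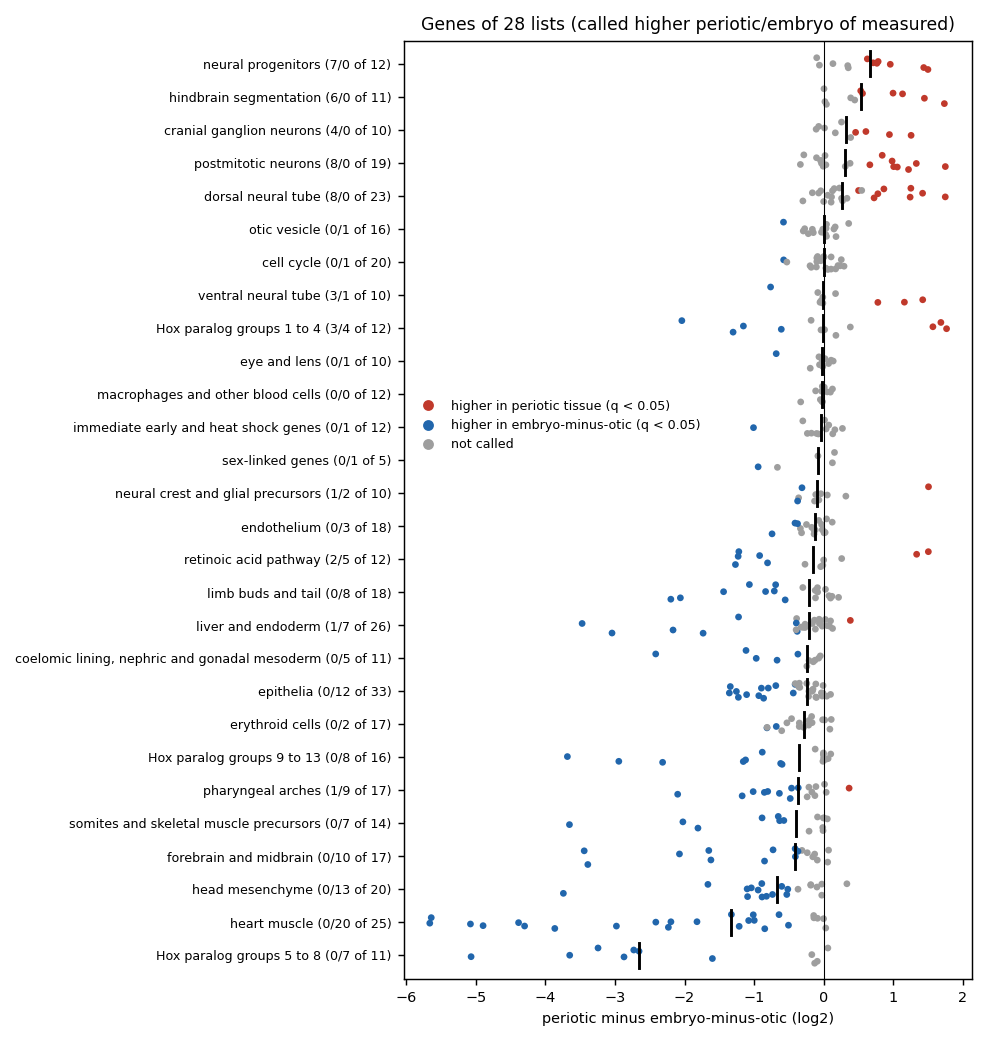
Differences on the log2 scale (horizontal axis) of the measured genes of 28 lists (vertical axis), a point per gene and a black bar at the list's median, with the number called higher in periotic tissue and in embryo-minus-otic of those measured beside each name. Neural progenitors, hindbrain segmentation, cranial ganglion neurons, postmitotic neurons and dorsal neural tube have medians from 0.25 to 0.67, and heart muscle and Hox groups 5 to 8 have medians of -1.33 and -2.65.

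Of 20 cell cycle genes 1 was called, *Cdkn1a*, the p21 inhibitor of the cycle, 1.49-fold higher in embryo-minus-otic, at 1 of its 3 probes. The list's median was 0.00056. *Cdkn1c*, *Mcm4* and *Ccnd1* differed by -0.11, 0.20 and 0.29, and another probe of *Ccnd1* was called higher in periotic tissue. Of 12 immediate early and heat shock genes, a sign of stress during dissection, 1 was called, *Hspb1*, which muscle also expresses, at least 1.80-fold higher in embryo-minus-otic, while *Egr1*, *Dusp1* and *Dnajb1* differed by 0.27, 0.07 and 0.13. Of 5 sex-linked genes, *Ddx3y* was 1.92-fold higher in embryo-minus-otic (limma *q* = 7.17e-05), with *Kdm5d* at -0.08, *Uty* at 0.12 and *Xist* at -0.67 (*q* = 0.11). Whether the pools differed in their share of male embryos was not tested.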

How the data were processed

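RNA of 9 pools (3 periotic tissue, 3 embryo-minus-otic, 3 OV) was labelled and hybridised by the authors to Illumina MouseRef-8 v2.0 arrays. The deposited table holds average signal intensity per probe, not normalized between arrays, with the detection p-value of each probe. Whether background was subtracted is not given in the sources used here. The number of arrays limits the precision. Quantile normalization of the log2 intensities used all 9 arrays. limma 3.58.1 in R 4.3.3 fitted the 3 groups in 1 model with empirical Bayes moderation and Benjamini-Hochberg adjustment over 25697 probes, checked on simulated data. A gene is represented by its probe with the highest mean over all arrays. Other probes of a called gene were not always called. The text names the 15 probes with the largest difference in each direction. They were picked among called probes above background on all 3 arrays of the higher group and without overlap between the groups. In each list up to 5 called genes by size and 3 uncalled ones by level are named. Also named are the Hox, hindbrain segmentation and OV genes and the 5 probes of each direction furthest from both other groups. Further list members are named so that the called genes are accounted for. The members and the 28 gene lists were chosen with earlier results of these data known. The OV list and part of the epithelial list hold genes that the paper ranks high in OV. Alternatives were other normalizations, background correction, filters, fits and leaving out each array. Upstream sequences are RefSeq's on GRCm38.p6. Some genes of these lists are counted but not reported by name here.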

Additional observations from a re-analysis of the deposited data

How the results depend on the processing

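Of the 184 differences of named genes at *q* under 0.05, 0 changed direction under any alternative run, and 56 of the 117 others changed sign under at least 1. Calls of 31 were lost under median normalization, 22 without normalization between arrays and 15 without periotic array 1 or without periotic array 2. Against 736 probes higher in periotic tissue and 757 higher in embryo-minus-otic, there were 325 and 371 without normalization, 812 and 315 under median normalization, 415 and 469 at *q* under 0.01, and 13 and 68 when limma tested against a 2-fold change. Leaving out 1 array gave 482 to 750 and 522 to 755. At 2-fold or more, periotic tissue had 145 probes under median normalization (122 in embryo-minus-otic) and 175 with neqc background correction against 78, and embryo-minus-otic had 274 with neqc against 151. The median difference of all probes was 0.01, and 0.05 under median normalization. Under median normalization the counts higher in embryo-minus-otic fell from 8 to 5 for limb and tail and from 5 to 3 for coelomic genes. The replicate block gave 829 and 840 probes, sharing 714 and 744 with the fit without it. Deviations of arrays with the same number correlated at 0.16, 0.23 and 0.03, and those of arrays with different numbers at -0.20 to 0.06. Periotic array 3 correlated best with embryo-minus-otic array 1, at 0.06 against 0.03. These values do not settle whether the numbers mark pairs, and the main fit did not use them as pairs. For the many genes near background, a difference could not be measured. The cause of these shifts was not tested.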

Other observations

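Genes of other signalling pathways were also called, and were chosen here after their values were seen. In periotic tissue *Nrarp*, a target and inhibitor of Notch signalling, and the secreted Wnt inhibitors *Sfrp1* and *Sfrp2* were higher, with differences on the log2 scale of 1.39, 1.41 and 1.05. *Fgfr3*, a receptor for fibroblast growth factors, was higher by 1.31. In embryo-minus-otic *Fgf17*, a ligand of the midbrain border, and the FGF targets *Dusp6*, *Etv4* and *Il17rd* were higher, with differences of -2.41, -1.49, -1.30 and -1.26. *Acta1*, skeletal actin, and *Des*, desmin, differed by -3.23 and -2.30.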
